A study of Oryza sativa with 12 samples.

Results

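Auxin inactivation in rice was followed through 6 genes given by identifier and name: the auxin-amido synthetase genes GH3.1 (Os01g0785400), GH3.2 (Os01g0764800), GH3.4 (Os05g0500900), GH3.8 (Os07g0592600) and GH3.13 (Os11g0528700), and the auxin oxidase gene DAO (Os04g0475600). The set was defined by name and identifier, at a time when earlier results of these data were known. Of the 6, 5 had a value among 32552 identifiers, and GH3.13 was not analysed here. Of these 5, DAO and GH3.1 passed the expression filter of 1 FPKM or more in at least 3 libraries, and GH3.4, GH3.2 and GH3.8 stayed below it. FPKM is a fragment count scaled by gene length and library size, so levels of different genes can be set side by side.

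The tissue was labelled leaf primordia of Oryza sativa, the young leaves formed at the shoot apex, and 12 RNA-seq libraries held 3 each of 4 groups. WT was the cultivar Nipponbare. The group ospin1c ospin1d was labelled as a knockout of both OsPIN1c and OsPIN1d, and ospid C1 and ospid C2 as lines with a knockout of OsPID. All groups shared the growth conditions and received no treatment in the labels, which do not give plant age, the kind of allele or whether replicates were separate plants. For ospin1c ospin1d no separate lines are named, so loss of both carriers and other traits of that material cannot be told apart.

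Auxin (indole-3-acetic acid, IAA) is removed from the active pool by conjugation and by oxidation. GH3 enzymes of the auxin type join IAA to amino acids, and many of their genes are themselves switched on by auxin, which makes them part of a feedback loop. DAO is a dioxygenase that turns IAA into an inactive oxidised form, and in rice it is known for its role in anther opening and fertility. PIN proteins export auxin from cells, and PINOID-type kinases such as OsPID phosphorylate PIN proteins. The comparisons ask whether the genes of this inactivation step differ in plants labelled as lacking these transport components.

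The spacing of the FPKM values gave library depths of 15211547 to 16422849 reads. Depth here is the total by which FPKM was scaled, nearly all of it reads of the identifiers, and need not be the number sequenced. Identifiers taken for the targeted genes from the naming of the rice annotation, not checked against a sequence, were Os06g0232300 (OsPIN1c), Os11g0137000 (OsPIN1d) and Os12g0614600 (OsPID). Os06g0232300 was at 0.336, 0.496 and 0.398 FPKM in ospin1c ospin1d against 0.285, 0.446 and 0.544 FPKM in WT, and Os11g0137000 at 0.658, 0.492 and 0.523 against 0.545, 0.878 and 0.794 FPKM. Os12g0614600 was at 0.944, 0.984 and 1.43 FPKM in ospid C1, 1.56, 1.08 and 0.934 FPKM in ospid C2 and 1.27, 1.18 and 1.22 FPKM in WT. Each mutant group named here for an identifier overlaps WT for that identifier. Because the assignment was not checked and may be wrong, these values cannot show whether transcript of the targeted genes differs in the labelled mutants. All 5 identifiers listed as leaf primordium markers (YABBY genes) were above 0 in every library, and both shoot meristem markers (KNOX genes) summed to 177 to 308 FPKM, so the samples also held meristem transcripts.

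DAO was the most abundant of the measured genes. Its mean over the 12 libraries was 54.7 FPKM, above 92.1% of identifiers, and it rested on 938 to 2021 reads per library. GH3.1 averaged 4.54 FPKM from 91 to 382 reads. GH3.4 averaged 0.628 FPKM, while GH3.2 and GH3.8 averaged 0.113 FPKM each, from 51 and 49 reads in all 12 libraries together. Among the 4 measured amido-synthetase genes, GH3.1 made up 74.2% to 89.9% of the summed level in every library.

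DAO stood at 53.6, 38.9 and 39.3 FPKM in WT and at 79.6, 71.8 and 70.5 FPKM in ospin1c ospin1d. It stood at 54.1, 49.4 and 54.7 FPKM in ospid C1 and at 35.2, 53.8 and 56.0 FPKM in ospid C2. All 3 ospin1c ospin1d libraries lay above the other 9, of which the highest reached 56.0 FPKM. WT, ospid C1 and ospid C2 overlapped one another, and the single lowest library was ospid C2 replicate 1.

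**Figure D1:**
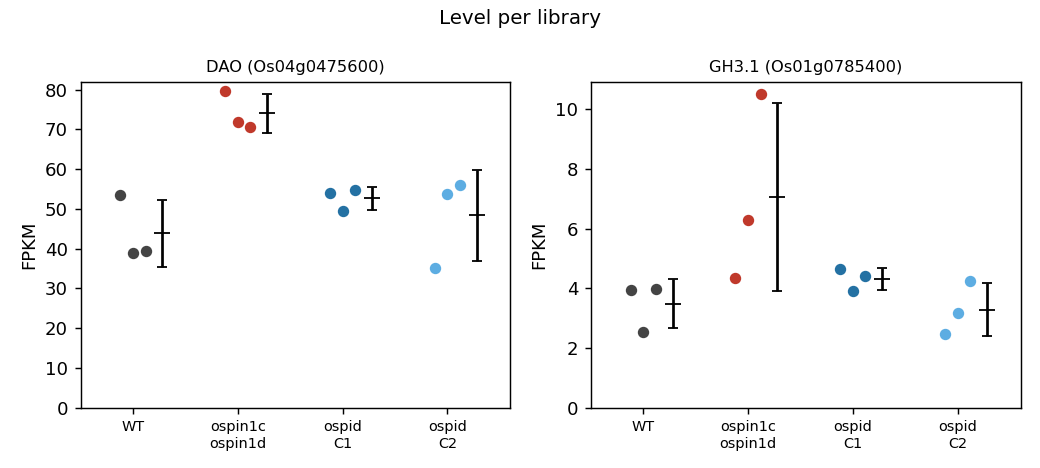
Level of DAO (left) and GH3.1 (right) in FPKM on a linear axis for the 3 libraries of each group; points are libraries in the order of their replicate number, and the black bar beside them is the mean with its SD (n = 3). For DAO the ospin1c ospin1d libraries, at 70.5 to 79.6 FPKM, lie above all others, and for GH3.1 they spread from 4.34 to 10.5 FPKM.

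In the comparison of ospin1c ospin1d with WT, DAO rose from 43.9 ± 8.39 to 74.0 ± 4.89 FPKM (SD, n = 3 each), a ratio of 1.68. The difference in log2(FPKM + 1) was 0.75 (SE 0.172, 95% interval 0.38 to 1.13, limma adjusted p = 0.0467). The adjusted p lies close to the threshold of 0.05. It was 0.0794 with no filter on low values, and 0.139 and 0.170 without WT replicate 2 or 3. Leaving out ospin1c ospin1d replicate 1, 2 or 3 gave 0.142, 0.129 and 0.133. It lay between 0.0584 and 0.0654 without any single ospid C1 library or ospid C2 replicate 2. The log2 difference stayed between 0.67 and 0.90 in all 21 alternative settings, and 10 of them had an adjusted p under 0.05, with a range of 0.00815 to 0.170.

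GH3.1 stood at 3.95, 2.55 and 3.97 FPKM in WT and at 4.34, 6.30 and 10.5 FPKM in ospin1c ospin1d. The spread among the ospin1c ospin1d libraries was the widest of the 4 groups for this gene, and replicate 3 was the highest of all 12 libraries. The means were 3.49 ± 0.815 and 7.05 ± 3.15 FPKM (SD, n = 3 each), a ratio of 2.02. The log2 difference was 0.79 (SE 0.258, 95% interval 0.22 to 1.35) with an unadjusted p of 0.0106 and a limma adjusted p of 0.151, so the call was not made. Without ospin1c ospin1d replicate 3 the difference was 0.49 (adjusted p = 0.427), and without replicate 1 it was 1.05 (adjusted p = 0.0788), in a range of 0.0788 to 0.427 over the alternatives.

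GH3.2, whose product conjugates IAA to amino acids and is known in rice for a role in disease resistance, was read far less often. It was at 0.0541, 0.129 and 0.0258 FPKM in WT, from 2, 5 and 1 reads, and at 0.162, 0.191 and 0.415 FPKM in ospin1c ospin1d, from 6, 7 and 16 reads. These groups do not overlap, and replicate 3 of ospin1c ospin1d was again the highest library. In the fit without a filter the log2(FPKM + 1) difference was 0.23 (95% interval 0.04 to 0.42, limma adjusted p = 0.281). On the recovered reads with voom, the log2 difference in scaled reads was 1.79 (95% interval -0.15 to 3.74, adjusted p = 0.406).

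GH3.4 was at 0.444, 0.594 and 0.282 FPKM in WT and at 0.295, 0.775 and 0.653 FPKM in ospin1c ospin1d, from 10 to 26 reads per library. GH3.8, whose product also conjugates IAA and is known in rice from disease resistance, was at 0.0283, 0.162 and 0.216 FPKM in WT. In ospin1c ospin1d GH3.8 was at 0.197, 0 and 0.109 FPKM. The library at 0 allows up to 0.0855 FPKM, the value of 3 reads, which covers counting error only. Both genes overlapped between these groups, and differences were not detectable at this depth.

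Of the 2 tested genes, 1 was called in this comparison, DAO, against a background of 1.32% of 21250 genes called higher in ospin1c ospin1d and 2.31% called in either direction. Of the 5 measured genes, 3 (DAO, GH3.1 and GH3.2) were higher with no overlap between the groups, and 10.2% of all identifiers met that description. The median log2 difference of DAO and GH3.1 was 0.77, beside -0.01 over all genes tested. In bulk tissue, more RNA per cell and more cells that carry the transcript cannot be told apart.

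Of the marker lists, 1 identifier was called in the same comparison, from the photosynthetic leaf list. The 4 identifiers listed as photosynthetic leaf markers summed to 1188 to 2057 FPKM in WT, 3176 to 4557 in ospin1c ospin1d, 1646 to 3484 in ospid C1 and 2330 to 3808 in ospid C2. Nearly all of that sum came from the pair listed as light-harvesting protein genes, while the pair listed as Rubisco small subunits stayed at 1.37 FPKM or less. The ratios of means of this low pair to WT were 2.18 and 2.42 in ospin1c ospin1d, from 49 against 23 and 45 against 19 reads. They were 0.992 and 0.383 in ospid C1 and 1.44 and 0.730 in ospid C2, and neither identifier passed the filter for testing. Os01g0600900, one of the light-harvesting pair, rose in ospin1c ospin1d (log2 difference 1.49, limma adjusted p = 0.0399) and in ospid C2 (1.30, adjusted p = 0.0290). In ospid C1 its log2 difference was 0.78 (limma adjusted p = 0.114, not called). Its call in ospin1c ospin1d was lost under median-ratio scaling (0.0525), over a range of 0.0196 to 0.156 in the alternatives run for it. The other of the pair, Os09g0346500, had a log2 difference of 0.75 in ospin1c ospin1d (limma adjusted p = 0.182, not called). Its libraries there lay above WT without overlap (ratio of means 1.66), as for 10.2% of all identifiers. In ospid C1 and ospid C2 its log2 differences from WT were -0.02 and 0.35, not called. The leaf primordium markers summed to 44.0 to 52.3 FPKM in ospin1c ospin1d and 56.2 to 69.3 in WT, with none of the 5 called. All 5 were lower in ospin1c ospin1d, with log2 differences from -0.61 to -0.10. Those at -0.61 and -0.56 did not overlap WT (limma adjusted p = 0.307 and 0.111, not called). The share of all identifiers lower without overlap is not given here, so this count has no background. The meristem markers summed to 278 to 297 and 242 to 308 FPKM, and the pair listed as inflorescence markers stayed at 0.348 FPKM or less in sum. Their part in the DAO result was not tested.

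**Figure D2:**
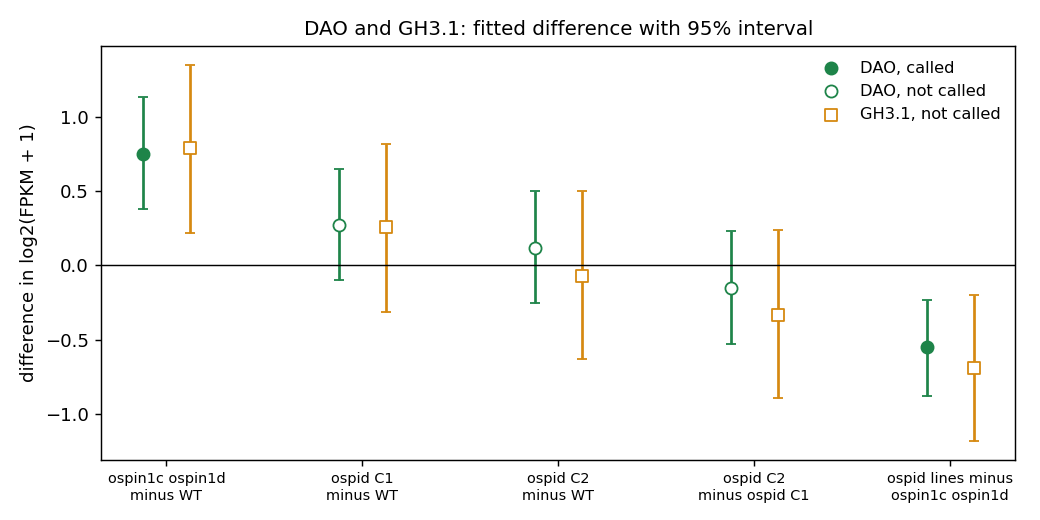
Fitted difference in log2(FPKM + 1) of DAO (circles) and GH3.1 (squares) for the 5 comparisons, with 95% intervals from limma; filled symbols have an adjusted p under 0.05. DAO is called at 0.75 for ospin1c ospin1d minus WT and at -0.55 for the ospid lines minus ospin1c ospin1d, and GH3.1 in none.

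Neither ospid line showed a called difference from WT in DAO or GH3.1. Of the 2 meristem markers, Os07g0129700 was called lower than WT in ospid C1 (log2 difference -0.48, limma adjusted p = 0.0301). It was also called lower in ospid C2 (-0.66, adjusted p = 0.00819). The other meristem marker was not called (0.15 in ospid C1 and 0.17 in ospid C2). In ospid C1, DAO averaged 52.7 ± 2.92 FPKM (SD, n = 3), with a log2 difference of 0.27 (95% interval -0.10 to 0.65, limma adjusted p = 0.272). In ospid C2 it averaged 48.4 ± 11.4 FPKM (log2 difference 0.12, 95% interval -0.25 to 0.50, adjusted p = 0.678). The median of all genes tested was shifted by 0.15 in ospid C1 as deposited and by -0.00 after median-ratio scaling, under which the DAO difference was 0.09.

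GH3.1 was at 4.64, 3.90 and 4.41 FPKM in ospid C1 and at 2.48, 3.17 and 4.24 FPKM in ospid C2. Both groups overlapped WT. The log2 difference was 0.26 for ospid C1 (95% interval -0.31 to 0.82, limma adjusted p = 0.491) and -0.07 for ospid C2 (-0.63 to 0.50, adjusted p = 0.891). The background share called was 15.5% of genes for ospid C1 and 10.0% for ospid C2, and 0 of the 2 tested members were called in either line. No measured member was free of overlap with WT in ospid C2, where 22.1% of all identifiers were in either direction.

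GH3.4 was the measured amido-synthetase gene with its highest mean in ospid C1. It was at 0.620, 1.16 and 1.19 FPKM there, from 21, 39 and 40 reads, a mean of 0.988 ± 0.319 FPKM against 0.440 ± 0.156 in WT (SD, n = 3 each). The groups do not overlap, as for 21.5% of all identifiers in that direction. In the fit without a filter the log2 difference was 0.46 (95% interval 0.05 to 0.87, limma adjusted p = 0.147). In ospid C2 the levels of GH3.4 were 0.310, 0.341 and 0.881 FPKM, with replicate 3 above and the other libraries within the WT range.

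GH3.2 was at 0.189, 0 and 0.0816 FPKM in ospid C1 and at 0.0257, 0 and 0.0834 FPKM in ospid C2. The libraries at 0 allow up to 0.0813 and 0.0780 FPKM. GH3.8 was at 0.0848, 0.170 and 0.142 FPKM in ospid C1 and at 0.135, 0.109 and 0 FPKM in ospid C2, where the library at 0 allows up to 0.0871 FPKM. With 16 reads or fewer in any library, both genes overlapped WT in both lines.

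**Figure D3:**
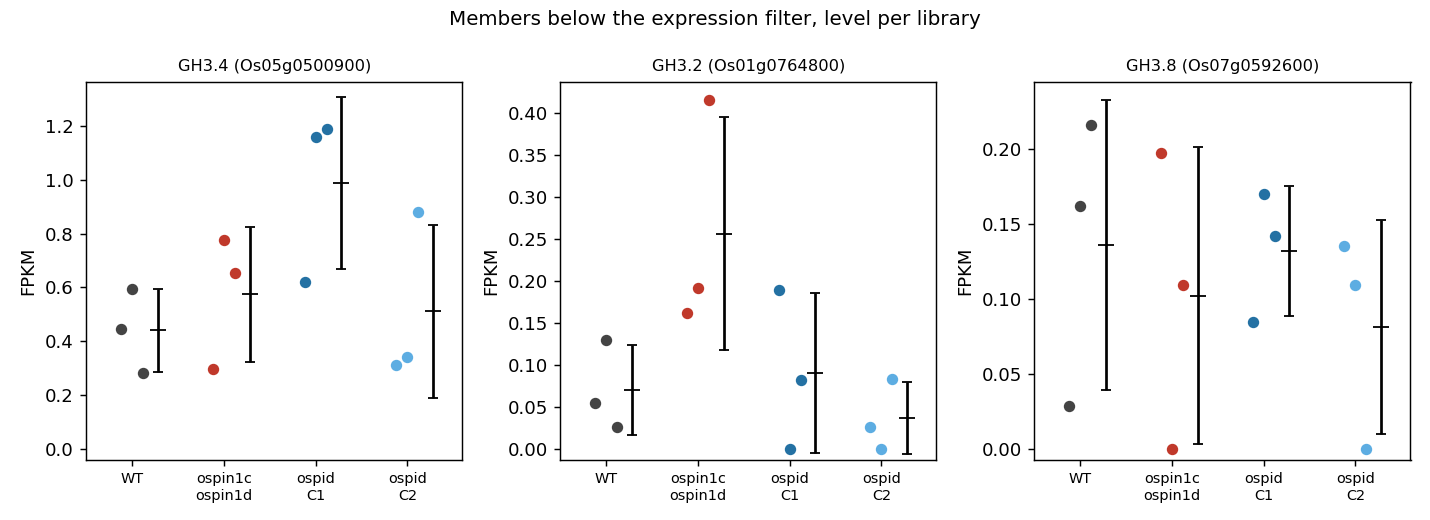
Level in FPKM of GH3.4, GH3.2 and GH3.8, the amido-synthetase genes below the expression filter, for the 3 libraries of each group on linear axes of different height; points are libraries in the order of their replicate number, and the black bar is the mean with its SD (n = 3). GH3.4 is highest in ospid C1, at 0.620 to 1.19 FPKM, GH3.2 in ospin1c ospin1d, at 0.162 to 0.415 FPKM, and the groups overlap for GH3.8.

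Between ospid C2 and ospid C1, which carry the same genotype label, no measured member was called or free of overlap. The log2 difference was -0.15 for DAO (95% interval -0.53 to 0.23, limma adjusted p = 0.770) and -0.33 for GH3.1 (-0.89 to 0.24, adjusted p = 0.668). The background was 0.00941% of genes, or 2 of 21250, with 2223 at an unadjusted p under 0.05, and 11.7% of identifiers did not overlap between the lines. For GH3.4, at 100 reads in ospid C1 and 52 in ospid C2, the fit without a filter gave -0.40 (-0.81 to 0.01, adjusted p = 0.592).

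The mean of both ospid lines was then set against ospin1c ospin1d, a direct test of whether the labelled mutants differ from each other. This comparison shares the ospin1c ospin1d libraries with the one against WT. DAO was lower in the ospid lines, at 50.5 ± 7.83 FPKM (SD, n = 6) against 74.0 ± 4.89 (n = 3), with no overlap. The log2 difference was -0.55 (SE 0.149, 95% interval -0.88 to -0.23, limma adjusted p = 0.0257). The call was kept in 18 of 21 alternatives, over an adjusted p of 0.00490 to 0.0939. It was lost without ospin1c ospin1d replicate 1, 2 or 3, at 0.0939, 0.0821 and 0.0652. In the same comparison Os04g0536300 and Os03g0215200 of the leaf primordium markers were higher in the ospid lines (log2 differences 0.61 and 1.17, limma adjusted p = 0.00638 and 0.00906). Os07g0129700 of the meristem markers was lower (-0.68, adjusted p = 0.00266), as it was in each ospid line against WT. Its difference for ospin1c ospin1d against WT was 0.11 (limma adjusted p = 0.747, not called). The part of these markers in the DAO difference was not tested.

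GH3.1 had a mean of 4.32 ± 0.374 FPKM in ospid C1 and 3.29 ± 0.886 FPKM in ospid C2, beside 7.05 ± 3.15 FPKM in ospin1c ospin1d (SD, n = 3 each). The lowest ospin1c ospin1d library, at 4.34 FPKM, overlapped ospid C1. The log2 difference was -0.69 (SE 0.223, 95% interval -1.18 to -0.20) with a limma adjusted p of 0.0507, just past the threshold on the side that is not called. Under median-ratio scaling the adjusted p was 0.0234, and with voom on the recovered reads 0.0327, while without ospin1c ospin1d replicate 3 it was 0.220 and the log2 difference -0.40. Of 21 alternatives, 8 gave a call, over a range of 0.0187 to 0.220. Of all genes, 19.2% were called in this comparison. In this comparison 6.96% were called lower in the ospid lines and 1 of the 2 tested members was, and 5.93% of identifiers were lower without overlap beside 1 of 5 measured members.

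GH3.2 in the fit without a filter differed by -0.24 (95% interval -0.40 to -0.07, limma adjusted p = 0.0693), from 14 reads in the 6 ospid libraries and 29 in the 3 ospin1c ospin1d libraries. The ratio of its mean FPKM was 0.247, and voom on the recovered reads gave a log2 difference of -2.37 (95% interval -4.00 to -0.74, adjusted p = 0.0577). GH3.4 differed by 0.13 (-0.22 to 0.49, adjusted p = 0.630) and GH3.8 by 0.01 (-0.15 to 0.17, adjusted p = 0.968). Of these 3 amido-synthetase genes, GH3.2 had the interval that excludes 0, and none was called.

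**Figure D4:**
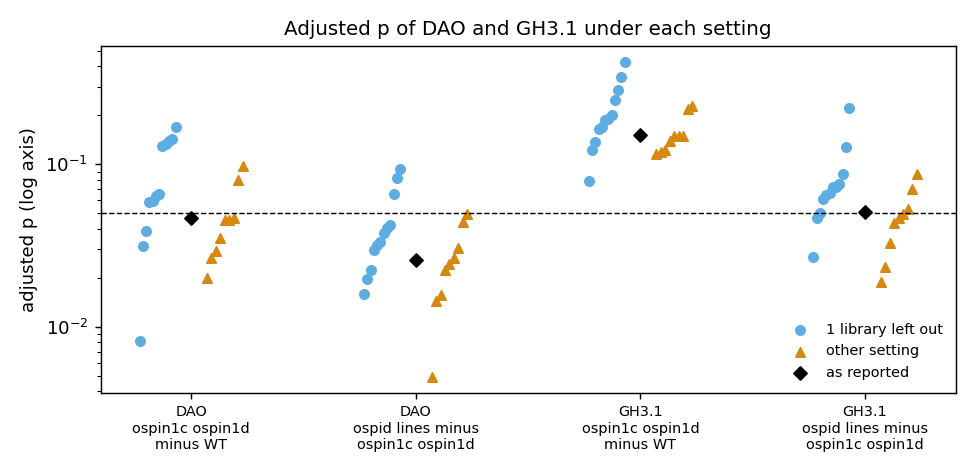
Adjusted p on a log axis for DAO and GH3.1 in the 2 comparisons that involve ospin1c ospin1d; diamonds are the reported values, circles leave out 1 of the 12 libraries, triangles are the other settings, and the dashed line is 0.05. The reported values of DAO (0.0467 and 0.0257) and of GH3.1 for the ospid lines (0.0507) have settings on both sides of the line, and GH3.1 against WT (0.151) has none below it.

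By group mean the order for DAO was ospin1c ospin1d, ospid C1, ospid C2 and WT, at 74.0, 52.7, 48.4 and 43.9 FPKM, with only the first free of overlap with its neighbour. For GH3.1 it was ospin1c ospin1d, ospid C1, WT and ospid C2, at 7.05, 4.32, 3.49 and 3.29 FPKM, and each neighbouring pair overlapped. GH3.2 had the same order as GH3.1, at 0.256, 0.0902, 0.0698 and 0.0364 FPKM. GH3.4 ran from ospid C1 through ospin1c ospin1d and ospid C2 to WT, and GH3.8 from WT through ospid C1 and ospin1c ospin1d to ospid C2, with overlap at each step. Summed over the 4 measured amido-synthetase genes, the level was 3.43 to 4.49 FPKM in WT, 5.23 to 5.82 in ospid C1 and 2.95 to 5.20 in ospid C2. In ospin1c ospin1d it was 7.26 and 11.7 FPKM in replicates 2 and 3, while replicate 1 lay below all ospid C1 libraries and inside the ospid C2 range, so the group did not stand apart. DAO exceeded that sum in every library, by 6.04 times in ospin1c ospin1d replicate 3 to 15.9 times in ospin1c ospin1d replicate 1, so both extremes lay in 1 group.

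Further genes were read from lists of identifiers assigned from the naming of the rice annotation. Of 8 listed as other GH3 genes, a family that also includes enzymes acting on jasmonate, 7 had a value and 3 were tested. Which hormone each of these acts on was not checked, so they may lie outside auxin inactivation. None of the 3 was called in any of the 5 comparisons by limma. Their median log2 difference was 0.03 for ospin1c ospin1d against WT, beside -0.01 over all genes. It was 0.43 for ospid C1 and 0.46 for ospid C2, beside 0.15 and 0.06. For the ospid lines against ospin1c ospin1d the median of the 3 was 0.38, beside 0.09 over all genes, with the 3 at 0.01, 0.38 and 0.41.

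The identifiers named next from these lists were chosen after their values were seen. Os05g0586200 was the most abundant of the other GH3 genes, at 9.26, 11.1 and 9.44 FPKM in WT and 10.7, 7.91 and 8.75 FPKM in ospin1c ospin1d. It was at 13.3, 12.3 and 13.1 FPKM in ospid C1 and 9.51, 11.3 and 13.7 in ospid C2. The ospid lines differed from ospin1c ospin1d by 0.38 (95% interval 0.11 to 0.66, limma adjusted p = 0.0525), opposite in sign to DAO and GH3.1. Os01g0221100 was at 1.25, 0.447 and 0.505 FPKM in WT and at 1.85, 1.78 and 1.77 FPKM in ospid C1, with a log2 difference of 0.72 (0.16 to 1.28, adjusted p = 0.0718) and no overlap. Of all identifiers, 21.5% were higher without overlap in ospid C1. Os01g0221100 was at 0.854, 1.46 and 2.61 FPKM in ospin1c ospin1d and at 0.963, 1.38 and 1.74 FPKM in ospid C2. Both groups overlapped WT with higher means, and ospin1c ospin1d replicate 3 was the highest library.

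IAA-amido hydrolases release IAA from such conjugates. Of 8 identifiers listed for them, 7 had a value, 4 were tested and none was called in any of the 5 comparisons. Os01g0560000 was the most abundant, at 43.1 to 51.5 FPKM in WT, 44.9 to 46.8 in ospin1c ospin1d, 48.5 to 64.5 in ospid C1 and 48.8 to 63.5 in ospid C2. For ospin1c ospin1d against WT its log2 difference was -0.01 (95% interval -0.29 to 0.27, limma adjusted p = 0.983). The median over the 4 was 0.00 there, and 0.07 for the ospid lines against ospin1c ospin1d, where members differed in sign. Os01g0560000 had a mean of 56.8 FPKM in the ospid lines against 45.8 (log2 difference 0.30, limma adjusted p = 0.0811), and Os01g0706900 of 1.86 against 2.64 FPKM (-0.34, adjusted p = 0.195), both without overlap and not called. Of all identifiers, 5.93% were lower without overlap in this comparison, and the share that was higher is not given here.

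**Figure D5:**
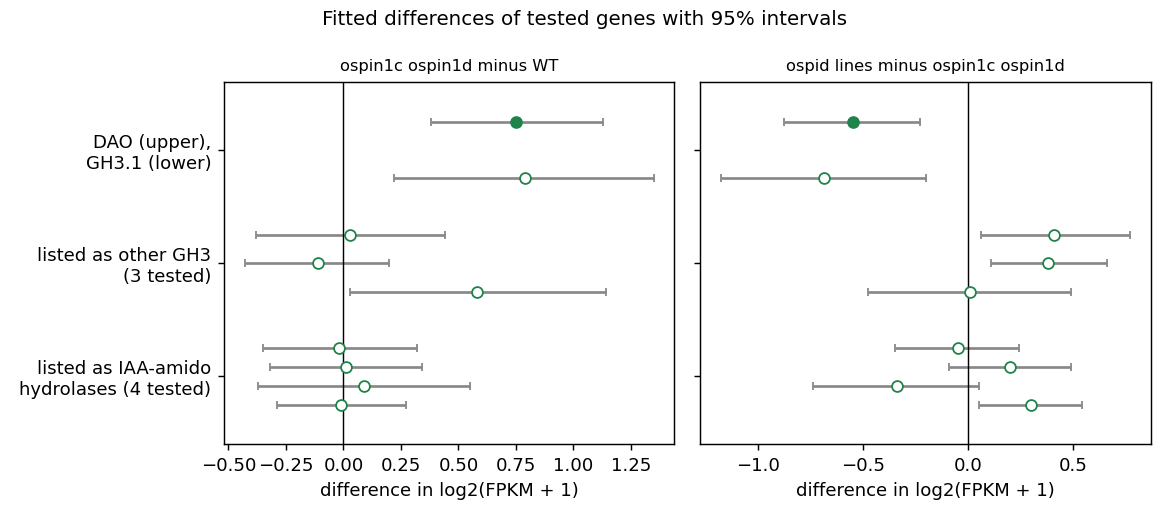
Fitted difference in log2(FPKM + 1) with 95% intervals for each tested gene, in ospin1c ospin1d minus WT (left) and in the ospid lines minus ospin1c ospin1d (right); filled points have an adjusted p under 0.05. DAO (upper point of the top pair, 0.75 and -0.55) is the filled point in both panels, and the 4 identifiers listed as hydrolases lie between -0.02 and 0.09 on the left.

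The identifiers whose log2(FPKM + 1) was most like that of DAO over the 12 libraries, among 20001 with a mean of at least 1 FPKM, were Os07g0638100 (Pearson r = 0.958) and Os02g0136000 (r = 0.952). Os07g0638100 averaged 22.5 ± 1.62 FPKM in ospin1c ospin1d and 10.5 ± 2.84 in WT (SD, n = 3 each). For GH3.1 they were Os05g0163700 (r = 0.945) and Os05g0195200 (r = 0.930). Os05g0163700 averaged 5.83 ± 3.62 FPKM in ospin1c ospin1d and 2.74 ± 0.272 in WT, with the same wide spread in the mutant as GH3.1. These values describe shared patterns over libraries that fall into 4 groups and were picked as the highest of many.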

How the data were processed

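Per the file headers, the authors deposited FPKM values by identifier, in a table for each library. The submitters' processing notes name IRGSP-1.0 as build and, with no role or order, HTSeq 0.6.0, HISAT2 2.1.0 and Bowtie2 2.2.3. Strand use and treatment of shared reads are not given in the sources used here. Overlapping genes and near-identical GH3 copies may share reads. Per the labels' protocols, 2 µg of total RNA entered an NEBNext Ultra library. Depth, gene length and reads were recovered from the FPKM steps: at the depth found, 99.93% of a subset of lengths came out whole (tolerance 0.05 bases), where other depths gave a median of 9.93%, and recovered reads summed to 99.95% to 99.98% of it.

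Differences in log2(FPKM + 1) were tested with limma 3.58.1 (trend option, R 4.3.3). The filter, 3 or more libraries reaching 1 FPKM, left 21250 genes. The model had 4 group means over the 12 libraries and no covariate, and p was adjusted by Benjamini-Hochberg over all genes, with a threshold of 0.05. The scale understates changes of low genes. The fit was tested on simulated data. Sample titles gave groups and replicate numbers. The labels do not say that replicates were grown apart, so p-values reflect only sample-to-sample spread here, possibly technical.

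Members, lists and tests were chosen with earlier results of these data known. Named genes are the 6 members, the identifiers taken for the targeted genes, and listed GH3, hydrolase and marker genes called in any comparison. The 2 most correlated identifiers for each member of at least 1 FPKM on average are also named. Os05g0586200, Os01g0221100, Os01g0560000, Os01g0706900 and Os09g0346500 fall outside this rule and were chosen after their values were seen. Of the 6 names, 5 occur in a RefSeq table of 39387 rice genes, on the chromosome the identifier gives, but that table does not pair names with these identifiers. No sequences are shown. Alternatives were median-ratio scaling, no filter, a mean of 1 FPKM, a pseudocount of 0.1, only the groups compared, a replicate block, voom on recovered reads and each library left out. Quantile normalization and voom without a filter were added after seeing the data.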

Additional observations from a re-analysis of the deposited data

Results flagged for a closer look

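DAO (Os04g0475600) differed between the labelled mutants by a direct limma test: its log2(FPKM + 1) in the ospid lines minus that in ospin1c ospin1d was -0.55 (adjusted p = 0.0257), with all 6 ospid libraries below all 3 ospin1c ospin1d libraries. The call was lost without ospin1c ospin1d replicate 1, 2 or 3 (adjusted p = 0.0939, 0.0821 and 0.0652). In the same comparison 2 of 5 leaf primordium markers were called higher and 1 of 2 meristem markers lower in the ospid lines, and neither tested photosynthetic leaf marker was called. That meristem marker was also called lower than WT in ospid C1 and in ospid C2. Between the ospid lines and ospin1c ospin1d, 19.2% of all genes tested were called in either direction and 6.96% were called lower. The 4 photosynthetic leaf markers summed to 1646 to 3484 FPKM in ospid C1, 2330 to 3808 in ospid C2 and 3176 to 4557 in ospin1c ospin1d, and the part of these marker lists in the difference was not tested.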

How the results depend on the processing

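Of 210 values of DAO and GH3.1 under alternatives, 206 kept their direction and 184 also their side of the threshold. The 4 that turned were small: GH3.1 in ospid C2 against WT was 0.01 without WT replicate 1 or 3 and 0.07 without ospid C2 replicate 1, in a range of -0.23 to 0.07, and DAO in ospid C2 against ospid C1 was 0.06 without ospid C2 replicate 1, in a range of -0.27 to 0.06. The number of measured members called in ospin1c ospin1d against WT (1) was 0 with no filter and with the replicate block, where DAO had an adjusted p of 0.0976, and 0 to 1 with a library left out. With ospin1c ospin1d set against the ospid lines (1), 2 were called with median-ratio scaling, a mean of at least 1 FPKM, the replicate block, either voom test and quantile normalization, and 0 to 2 with a library left out. In the other comparisons it was 0 throughout. Over all genes, 490 were called for ospin1c ospin1d against WT and 325 with the replicate block. For ospid C1 (3293) the count was 2189 with no filter, 1808 with only the groups compared and 2141 with the replicate block, and for ospid C2 (2128) it was 1058 with only the groups compared. Between ospid C2 and ospid C1 the 2 calls by limma (2223 at an unadjusted p under 0.05) became 5 with no filter, 1 with only the groups compared, and 0 with median-ratio scaling, a mean of 1 FPKM, a pseudocount of 0.1, either voom test and quantile normalization. Leaving out each library gave 185 to 788, 933 to 4716, 1072 to 3427, 0 to 42 and, for the ospid lines against ospin1c ospin1d (4071), 1448 to 5618. The cause was not tested. No pairing by number was seen: over 18 same-numbered pairs the correlation of deviations was -0.227 to 0.0694, and 0 of 12 libraries matched their own number best. Depth limits GH3.2 and GH3.8, read 0 to 16 times per library.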
